A study of Mus musculus with 6 samples.

Results

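The transcriptome described here is the baseline of 3 control clones of mpkCCD kept under dDAVP, which are 3 of the 6 samples of the series. The clones were chosen by their labels alone, and no measured value entered the choice. mpkCCD is an immortalised mouse cell line from the cortical collecting duct of the kidney, and the clones descend from its mpkCCDc11 line. The other 3 samples carry a label of PKA double knockout, PKA being the cyclic AMP-dependent kinase, and are not analysed here. Each control clone is 1 clonal line with 1 RNA library, and the labels do not say what was done to make the clones controls. All 3 clones were grown on permeable supports for 4 days in DMEM/F12 with 2% serum, insulin (5 µg/mL), dexamethasone (50 nM), triiodothyronine (1 nM), epidermal growth factor (10 ng/mL), sodium selenite (60 nM) and transferrin (5 µg/mL). Serum and these hormones were then withdrawn, and the clones were held for 3 days in 0.1 nM dDAVP, an analog of vasopressin that acts on the V2 receptor. No library without dDAVP was used here, so the levels are levels under dDAVP and not responses to it. Because there is 1 group of 3 clones, nothing was tested and values are given per clone, in the order clone 1, clone 2 and clone 3.

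The principal cell of the collecting duct takes up water when vasopressin reaches its basolateral V2 receptor, Avpr2. The receptor couples through the stimulatory G protein to adenylyl cyclase, and the cyclic AMP that is made activates PKA, which raises the abundance of the water channel aquaporin-2 (Aqp2) and its insertion in the apical membrane. The same cell takes up sodium through the epithelial sodium channel, built of the subunits Scnn1a, Scnn1b and Scnn1g, while the neighbouring intercalated cells carry acid and base. Tfcp2l1 is a transcription factor of the mature collecting duct.

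Of the 4 genes that mark these cells, Aqp2 is listed as transcript ENSMUST00000023752.4 with 4 exons at chr15:99579056-99584545, on the plus strand of GRCm38. Avpr2 is ENSMUST00000033765.7, with 3 exons at chrX:73892102-73894428. Tfcp2l1 is ENSMUST00000027629.9, with 15 exons at chr1:118627946-118685168, and Scnn1a is ENSMUST00000081440.13, with 12 exons at chr6:125321340-125344943, both on the plus strand. The 250 bases before the start of 3 of these genes are shown, with those of Scnn1b, because Aqp2 and Scnn1b lie far apart in level in the same cells. They come from RefSeq (GRCm38.p6), run 5′ to 3′ on the plus strand and carry capitals where a searched motif matched. The promoter of Scnn1a was looked for and is not shown.
Aqp2, chr15:99578806-99579055: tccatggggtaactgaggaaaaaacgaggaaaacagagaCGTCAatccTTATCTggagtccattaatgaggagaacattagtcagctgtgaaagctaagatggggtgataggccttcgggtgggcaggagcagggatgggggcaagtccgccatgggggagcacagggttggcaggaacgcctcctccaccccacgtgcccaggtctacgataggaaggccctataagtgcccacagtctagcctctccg
Avpr2, chrX:73891852-73892101: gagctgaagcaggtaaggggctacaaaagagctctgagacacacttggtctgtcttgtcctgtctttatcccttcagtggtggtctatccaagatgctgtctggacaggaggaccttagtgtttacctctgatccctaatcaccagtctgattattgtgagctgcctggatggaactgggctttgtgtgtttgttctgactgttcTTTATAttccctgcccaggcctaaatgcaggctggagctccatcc
Tfcp2l1, chr1:118627695-118627944: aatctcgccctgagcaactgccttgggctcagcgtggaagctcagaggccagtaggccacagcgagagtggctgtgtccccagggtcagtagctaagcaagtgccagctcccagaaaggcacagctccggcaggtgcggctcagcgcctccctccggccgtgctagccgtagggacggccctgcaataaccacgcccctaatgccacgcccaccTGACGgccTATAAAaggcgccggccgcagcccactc
Scnn1b, chr7:121864788-121865037: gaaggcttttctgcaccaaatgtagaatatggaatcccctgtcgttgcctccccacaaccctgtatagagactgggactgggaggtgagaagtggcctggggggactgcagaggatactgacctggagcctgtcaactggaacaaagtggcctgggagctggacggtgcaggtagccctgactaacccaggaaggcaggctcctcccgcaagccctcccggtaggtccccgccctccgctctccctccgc
The motifs reported, each searched on both strands, are the cAMP response element TGACGTCA, its shorter form TGACG, which lies within it, AGATAA for GATA factors, AACCGGTT for Grainyhead factors and the TATA box TATAAA. In the Aqp2 promoter TGACG was found on the opposite strand 211 bases before the start and AGATAA on the opposite strand 202 bases before it. The Tfcp2l1 promoter held TGACG 36 bases and TATAAA 28 bases before the start, both on the same strand. The Avpr2 promoter held TATAAA on the opposite strand, 45 bases before the start, and the Scnn1b promoter held none of these motifs. Of 32536 promoters of this length, 17.85% held TGACG, 9.97% AGATAA and 12.31% TATAAA. The full element TGACGTCA was found in 1.56% of them and AACCGGTT in 0.12%, and neither was in the 4 shown.

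The recovered reads that stand behind the values numbered 39780099, 28596444 and 42515838. Levels are compared between genes in FPKM, which scales fragments by transcript length and by library, and between clones in CPM, which scales the reads in the table by their library total. The scales are kept apart because the deposited FPKM of a gene with an equal share of the table's reads is 1.54 times as high in clone 1, and 1.22 times as high in clone 3, as in clone 2. Clone 1 stands apart in a further way. Transcripts without a read numbered 2443 in clone 1 against 863 and 965, and of 1349 olfactory and vomeronasal receptor genes, which serve the sense of smell, 50.7% had a read in clone 1 against 87.4% and 85.1%. The 95th percentile of these receptor genes (0.078, 0.212 and 0.143 FPKM) is taken as the background of each clone. Levels near it are lower in clone 1: it was lowest in CPM for 82.6% of the 328 listed genes below 1 FPKM and for 81.9% of the receptor genes, but for 28.8% of the 319 listed genes at 1 FPKM or more. These cultures are bulk samples, in which fewer cells expressing a gene and less RNA per cell cannot be told apart.

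A mean of at least 1 FPKM was reached by 9816 of 20896 transcripts (47.0%), and by 49.9% of the protein-coding ones. The 3 highest transcripts were structural RNAs, Rn7sk, Rpph1 and Rmrp, which rRNA depletion leaves in total RNA. Apart from ribosomal proteins, the highest protein-coding genes were Eef1a1, a translation elongation factor at rank 4 (1537, 1109 and 1543 FPKM), cytoskeletal Actb at rank 5 and the elongation factor Eef2 at rank 8. Krt18, a keratin of simple epithelia, followed at rank 11 with 615, 480.2 and 562 FPKM, and the calcium-binding S100a6 at rank 13. The first 12 also held Gnb2l1, a ribosomal scaffold, the chaperone Hsp90ab1, Atp5b of the ATP synthase, the glycolytic enzyme Pkm, the ferritin Ftl1 and the histone genes Hist1h4h and Hist1h2bb. Such histone messages usually lack a poly(A) tail and are seen here in a library made by rRNA depletion. The abundance was spread over many genes, as the 100 highest transcripts held 16.5% to 19.2% of the reads in the table and the 1000 highest 41.3% to 44.1%.

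**Figure D1:**
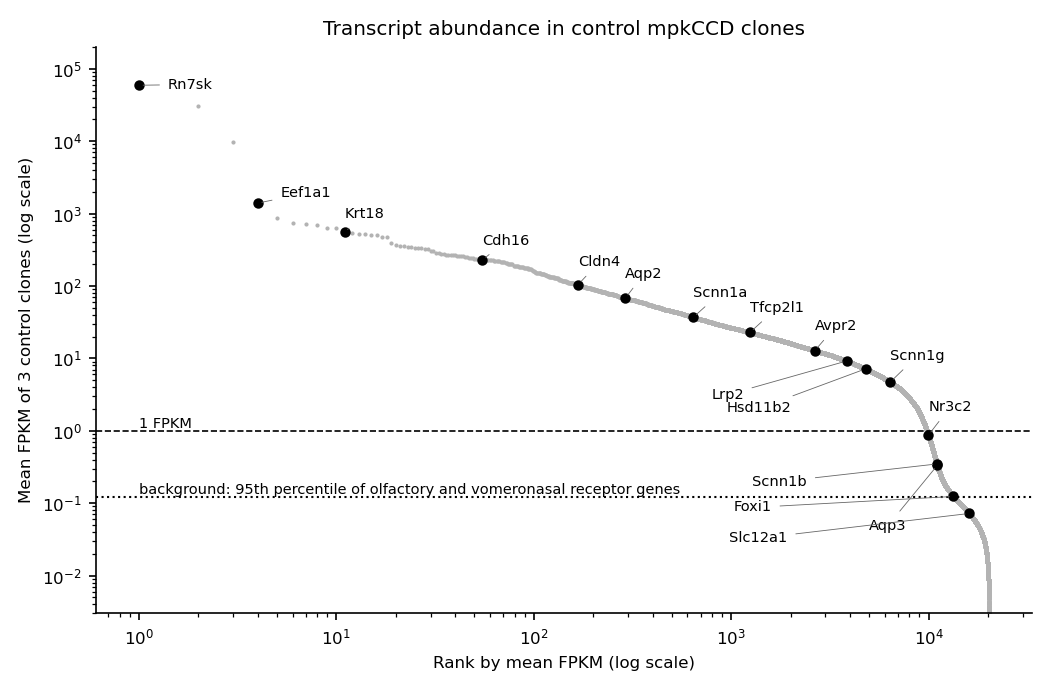
Mean FPKM of the 3 control clones (log scale) against the rank of each transcript (log scale), with named genes as black points, the 1 FPKM line dashed and the background of the mean, 0.122 FPKM, dotted. Krt18 (rank 11) and Aqp2 (rank 291) sit high on the curve, while Scnn1b, Aqp3 and Slc12a1 lie below 1 FPKM.

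The clones carried RNA of part of the principal cell list. Of 16 principal cell markers in the table, 9 (56.2%) reached 1 FPKM, against 47.0% of all transcripts and 49.9% of the protein-coding ones. That count alone does not set these markers apart. Above background in every clone were 12 of them (55.7% of all transcripts were). Aqp2 was the highest by mean at rank 291, with 126, 33.6 and 44.1 FPKM, a mean of 67.7 ± 50.3 (SD, n = 3). Its rank rests on clone 1: without that clone it was 524, by median FPKM 498, and by mean CPM, which is not per length, 776. In clone 2 Aqp2 was below Scnn1a. Clone 1 was the highest, and in CPM, 361, 149 and 161, it was 2.42-fold above clone 2, while clones 2 and 3 lay within 1.08-fold of each other. Nephronectin (Npnt), a matrix ligand of the duct, had 75.9, 31.6 and 36.2 FPKM at rank 454. Scnn1a stood at rank 643 with 43.7, 37.5 and 29.6 FPKM. The order of Npnt over Scnn1a held in 2 of the 3 clones, whereas Aqp2 was above Npnt in each.

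Tfcp2l1 followed at rank 1247 with 30.6, 14.8 and 23.2 FPKM, the transcription factor Gata3 at rank 2052 with 22.6, 12.2 and 12.7, and Avpr2 at rank 2656 with 15.1, 9.73 and 13.6. In CPM Avpr2 had 55.7, 55.4 and 63.96, a 1.155-fold range, where the median of all transcripts at 1 FPKM or more was 1.213-fold. The clone with the most receptor RNA was clone 1 in FPKM and clone 3 in CPM, so that order is not settled. Hsd11b2, the enzyme that inactivates cortisol and corticosterone and so keeps them from the mineralocorticoid receptor, differed most among the markers: 17.4, 1.18 and 2.96 FPKM, or 65.03, 6.84 and 14.1 CPM, a 9.38-fold range. Clone 1 was far above the others, and without it the range was 2.05-fold. The sialyltransferase St6gal1 had 12.5, 4.97 and 4.78 FPKM and Scnn1g 7.08, 3.66 and 3.35, again highest in clone 1. Of the 9 markers at 1 FPKM or more, clone 1 was highest in CPM for 7. Over all genes at that level the highest was clone 1 for 40.0%, clone 2 for 27.4% and clone 3 for 32.6%.

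The other 7 markers were low. The mineralocorticoid receptor Nr3c2 had 0.686, 0.877 and 1.04 FPKM, and Scnn1b, the beta subunit of the sodium channel, 0.40, 0.257 and 0.386, above background in each clone but far under Scnn1a. Aqp3, the basolateral water channel, had 0.399, 0.291 and 0.307 FPKM, and Aqp4, its basolateral companion, 0.693, 0.079 and 0.846. Aqp4 in clone 2 was under that clone's background, as was Gata2 (0.961, 0.112 and 0.256 FPKM). Elf5, an ETS factor of principal cells, had 0.139, 0.13 and 0.157 FPKM, and Kcnj1, the secretory potassium channel ROMK, 0.024, 0.098 and 0.113, under background in every clone. Fxyd4 is not analysed here. The 4 genes named as markers of the line, Aqp2, Avpr2, Scnn1a and Tfcp2l1, were thus all above 9 FPKM in each clone, while the wider list was met in part.

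**Figure D2:**
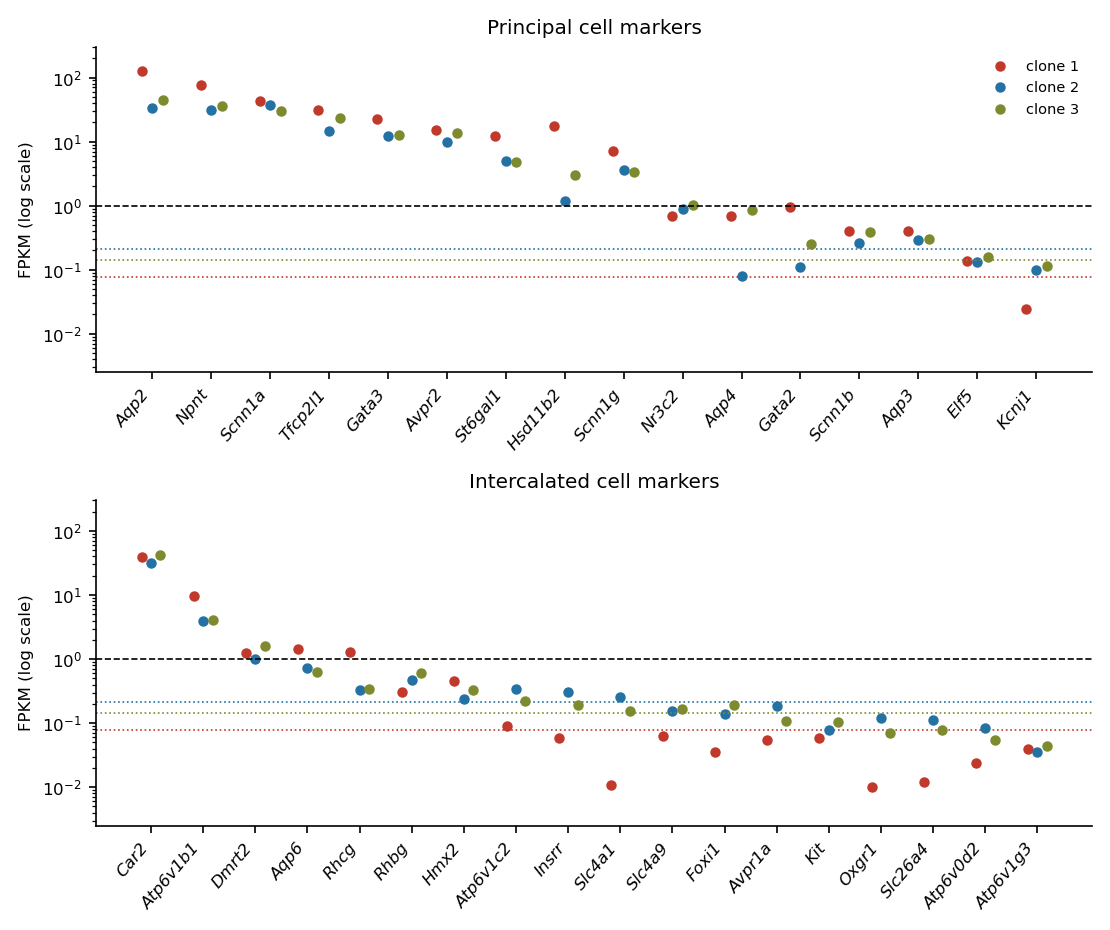
FPKM (log scale) of every principal cell marker (upper panel) and intercalated cell marker (lower panel) in each control clone, with 1 FPKM dashed and each clone's background dotted in its colour. In the upper panel 9 of 16 markers have means above the dashed line, in the lower panel 3 of 18.

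Of 18 intercalated cell genes, 3 (16.7%) reached 1 FPKM, against 47.0% of all transcripts, and 8 were above background in every clone, as were 55.7% of all transcripts. Car2, the cytosolic carbonic anhydrase, stood at rank 634 with 39.03, 31.1 and 41.8 FPKM, and is not restricted to intercalated cells. Atp6v1b1, a proton pump subunit, had 9.75, 3.98 and 4.09 FPKM and the transcription factor Dmrt2 1.25, 0.999 and 1.58. With means below 1 FPKM but above background in each clone were Aqp6 (1.44, 0.719 and 0.618 FPKM), the ammonia transporter Rhcg (1.304, 0.332 and 0.344), its relative Rhbg, Hmx2 and Atp6v1c2. The genes that define the class did not stand out: Foxi1, its master transcription factor, had 0.036, 0.141 and 0.194 FPKM, and the anion exchangers Slc4a1 and Slc26a4, the pump subunits Atp6v0d2 and Atp6v1g3, the receptor tyrosine kinases Insrr and Kit, Slc4a9, Oxgr1 and Avpr1a had means of 0.039 to 0.187 FPKM.

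Genes of the other nephron segments reached 1 FPKM in shares of 0.0% to 33.3% per list, against 47.0% of all transcripts. Of 9 thick ascending limb markers 0 reached 1 FPKM and 0 were above background in every clone; Slc12a1, the cotransporter NKCC2, had 0.016, 0.111 and 0.089 FPKM and uromodulin (Umod) 0.033, 0.034 and 0.046. Of 7 distal convoluted tubule markers 2 passed 1 FPKM, the kinase Wnk4 (3.797, 2.75 and 3.36 FPKM) and Cnnm2 (3.53, 1.88 and 2.096), while the cotransporter Slc12a3 had 0.357, 0.143 and 0.151. The 3 connecting tubule markers, S100g, Trpv5 and Klk1, were under 0.16 FPKM on average. Of 11 proximal tubule markers 2 passed, the endocytic receptor megalin (Lrp2), with 11.3, 8.67 and 7.72 FPKM at rank 3865, and the scaffold Pdzk1, with 1.76, 1.29 and 1.17. The phosphate cotransporter Slc34a1 had 0.04, 0.203 and 0.161 FPKM, and the proximal tubule regulator Hnf4a was at background. Among 6 podocyte genes, Podxl (13.9, 9.46 and 10.9 FPKM) and Synpo (2.103, 1.15 and 1.01) were found, while the slit diaphragm gene Nphs1 was under background in every clone.

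Barttin (Bsnd), a chloride channel subunit of the loop and distal nephron, had 2.85, 2.89 and 5.68 FPKM. In CPM it was lowest in clone 1, at 15.99, 25.03 and 40.5, the reverse of Aqp2.

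Markers of other cells were checked in the same way. Of 8 urothelial genes 5 (62.5%) reached 1 FPKM, against 47.0% of all transcripts and 56.2% of the principal cell markers. They were Krt20 (46.5, 37.6 and 47.1 FPKM, rank 524), the uroplakins Upk1a (33.5, 30.4 and 35.7, rank 740), Upk3b (28.01, 18.2 and 17.8) and Upk2 (1.55, 1.13 and 1.09), and the surface protein Psca (8.602, 13.2 and 8.99). The whole list summed to 119, 103 and 111 FPKM. The basal keratin Krt5 was at background. Endothelial genes summed to 8.74, 6.04 and 6.995 FPKM, nearly all of it Egfl7 (8.44, 4.94 and 6.23 FPKM), while Pecam1, Cdh5, Kdr and Vwf lay under background in every clone. Immune genes summed to 4.50, 6.46 and 4.83 FPKM, mostly the growth factor receptor Csf1r (4.05, 4.89 and 3.88), and Ptprc, which all leukocytes carry, had 0.237, 0.251 and 0.164. Stromal and smooth muscle genes summed to 1.21, 1.47 and 1.44 FPKM. Of these the smooth muscle gene Tagln had 0.988, 0.661 and 0.81 FPKM, above background in each clone, while the collagen genes Col1a2 and Col3a1 were under background in every clone. Whether other cells contributed RNA was not tested.

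The kidney epithelial and ureteric bud genes were the fullest of the segment lists, with 12 of 14 (85.7%) at 1 FPKM or more, against 47.0% of all transcripts. Behind Krt18 came Cdh16, the kidney-specific cadherin, with 329, 141 and 216 FPKM at rank 55, and Krt8, the partner of Krt18, with 272, 189.7 and 217 at rank 58. Cdh16 was over Krt8 in 1 of 3 clones only, so their order is not settled. The adhesion molecule Epcam (123, 71.4 and 85.01 FPKM), E-cadherin (Cdh1, 102, 61.6 and 71.3), Krt19 (64.5, 53.3 and 59.8) and the ligand Wnt7b (68.2, 43.6 and 51.9) followed. The transcription factors Pax8 (42.7, 28.9 and 33.3 FPKM), Emx2 (6.59, 3.52 and 3.98) and Pax2 (6.02, 2.71 and 3.49) were all present, whereas Ret, the receptor of the ureteric bud tip, was under background in each clone.

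The list of the sodium channel and its regulators had 11 of 12 genes (91.7%) at 1 FPKM or more, against 47.0% of all transcripts. The 1 gene below was the channel subunit Scnn1b, and most of the list are regulators. The highest were the ubiquitin ligase Nedd4 (114, 62.4 and 74.5 FPKM), the kinase Sgk1 (44.9, 66.1 and 41.3), which keeps the channel at the membrane, and the protease St14 (61.3, 33.1 and 36.02). Sgk1 was highest in clone 2, at 223, 507 and 261 CPM, a 2.27-fold range. Channel-activating proteases Prss8 (28.2, 18.6 and 25.04 FPKM), Furin (19.1, 10.4 and 11.8) and Tmprss4 (4.19, 5.36 and 3.27) were present too. Nedd4l, the ligase best known for removing the channel, had 6.05, 3.93 and 4.61 FPKM, under Nedd4 in each clone.

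Among sodium pump genes, the beta subunit Atp1b1 had 76.97, 54.9 and 60.96 FPKM and Atp1b3 22.3, 11.1 and 15.5. The pump regulator Fxyd2 varied 3.88-fold between clones, at 10.2, 40.04 and 38.99 CPM, with clone 1 low. Fxyd5 ran the other way, at 5.68, 2.44 and 2.39 CPM.

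Among 17 potassium channel and potassium-chloride cotransporter genes 7 (41.2%) reached 1 FPKM, against 47.0% of all transcripts. Kcnk1, a potassium leak channel, led with 67.7, 35.1 and 41.8 FPKM, far above Slc12a4 (10.5, 3.99 and 5.34), the voltage-gated Kcnq1 (7.0, 4.46 and 4.12) and Slc12a7 (5.82, 3.56 and 4.16). Kcnj16, an inward rectifier of the basolateral membrane, was highest in clone 3, at 3.25, 3.49 and 26.4 CPM. In FPKM it had 0.437, 0.285 and 2.79, so its mean passed 1 FPKM through clone 3 alone. Its 7.92-fold range was the second widest of the listed genes at 1 FPKM or more and stayed at 7.39-fold without clone 1. Kcnj10, its usual partner, had 0.286, 0.193 and 0.248 FPKM, and Kcnma1, the large-conductance channel, was under background in each clone.

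Of sodium-coupled carriers, the scaffold Slc9a3r1 (43.3, 24.2 and 31.9 FPKM), the cotransporter NKCC1 (Slc12a2, 15.2, 8.31 and 8.77) and the organellar exchanger Slc9a8 (8.21, 5.84 and 6.4) were highest of 7 out of 13 (53.8%) at 1 FPKM or more. Of chloride and bicarbonate genes 19 of 27 (70.4%) reached 1 FPKM, against 47.0% of all transcripts. The basolateral anion exchanger Slc4a2 had 36.98, 20.7 and 23.3 FPKM, the scramblase Ano6 20.9, 14.1 and 16.8, the endosomal exchanger Clcn3 21.7, 11.01 and 16.1 and the calcium-activated chloride channel Ano1 25.5, 9.93 and 10.8, and all 5 genes Lrrc8a to Lrrc8e of the volume-regulated channel were expressed. Cftr was under background in each clone. Of 12 aquaporins 2 (16.7%) reached 1 FPKM, Aqp2 and Aqp5 (3.04, 0.919 and 1.74). The neighbours of Aqp5 in level, Aqp6 and Mip, had means under 1 FPKM.

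For osmolytes the sorbitol-forming aldose reductase Akr1b3 had 52.03, 18.9 and 44.5 FPKM, the taurine carrier Slc6a6 26.8, 15.2 and 15.1 and the myo-inositol carrier Slc5a3 14.6, 6.29 and 8.69, beside Nfat5, the transcription factor of the tonicity response, with 27.96, 9.52 and 12.9, a value 1.38 times what its reads give over the listed length. The urea carriers Slc14a1 and Slc14a2 were under background in each clone. Glucose carriers at 1 FPKM or more numbered 2 of 13 (15.4%, against 47.0% of all transcripts), Slc2a1 (10.1, 7.81 and 9.45 FPKM) and the intracellular Slc2a8 (4.59, 3.54 and 4.67). Of 24 amino acid carriers 13 (54.2%) passed, led by Slc38a2 (74.1, 47.9 and 61.5 FPKM) and Slc3a2 (55.7, 44.97 and 56.6), the heavy chain that pairs with Slc7a5 (14.9, 10.4 and 16.8). The cystine carrier Slc7a11 varied 2.57-fold, highest in clone 3.

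Calcium and metal genes passed in 18 of 25 cases (72.0%), led by the osmosensitive calcium channel Trpv4 (42.1, 29.2 and 27.7 FPKM, rank 745), then the transferrin receptor Tfrc (13.5, 8.696 and 20.03), the zinc and iron carrier Slc39a14 (18.7, 10.7 and 10.8) and the calcium pump Atp2b1 (15.7, 11.1 and 12.1). The polycystins Pkd2 (17.7, 8.92 and 11.01 FPKM) and Pkd1 (4.82, 3.06 and 3.44) were present, while the distal calcium channels Trpv5 and Trpv6 were under background. Over all solute carrier genes, 167 of 348 reached 1 FPKM, 48.0%, near the 47.0% of all transcripts, and 35 of them (10.1%) reached 10 FPKM, a smaller share than the 17.0% of all transcripts. The 10 highest were the mitochondrial carriers Slc25a3 (108, 84.3 and 108 FPKM), Slc25a5, Slc25a39 and Slc25a11, the amino acid carriers Slc38a2 and Slc3a2, the scaffold Slc9a3r1, the choline carrier Slc44a2, the zinc carrier Slc39a1 and Slc4a2.

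The medium had contained ligands for several receptors. The list of receptors of agents in the media also holds Erbb2 and Erbb4, as relatives of the receptor Egfr. Of its 10 genes, 7 (70.0%) reached 1 FPKM, against 47.0% of all transcripts. They were Erbb2 (17.3, 14.6 and 16.01 FPKM), Tfrc, Egfr (15.3, 10.8 and 13.3) and Avpr2. With them came the thyroid hormone receptor Thra (7.44, 7.0 and 9.14), the glucocorticoid receptor Nr3c1 (9.63, 5.52 and 6.17) and the insulin receptor Insr (4.28, 2.16 and 3.57). Nr3c1 exceeded Nr3c2 in every clone, with means of 7.11 and 0.868 FPKM, and Thra exceeded Thrb (mean 0.042). Erbb4 was under background in each clone, and Erbb3 and Igf1r are not analysed here.

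Of 28 vasopressin, prostanoid and purine receptors 5 (17.9%) reached 1 FPKM, against 47.0% of all transcripts, with Avpr2 the highest, then the adenosine receptor Adora1 (13.1, 8.58 and 9.99 FPKM), the purine receptors P2rx4 (6.89, 5.05 and 4.06) and P2ry2 (5.33, 3.505 and 4.36), and the prostaglandin E2 receptor Ptger4 (1.77, 1.498 and 1.68). Avpr1a, Oxtr and Ptger2 were under background, and Ptger3 had a mean of 0.135 FPKM. Of 48 other G protein-coupled receptors 7 (14.6%) passed, led by the orphan Gprc5c (91.4, 60.7 and 67.5 FPKM, rank 265), the thrombin receptor F2r (17.8, 10.9 and 13.5) and Gprc5a (14.5, 9.62 and 9.095). The endothelin receptors Ednra and Ednrb, the angiotensin receptor Agtr1a and the calcitonin receptor Calcr were each under background in every clone.

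Receptor tyrosine kinases passed in 22 of 53 cases (41.5%), against 47.0% of all transcripts. The hepatocyte growth factor receptor Met (24.9, 16.8 and 21.2 FPKM) and Fgfr2 (31.04, 15.3 and 13.96) led, and Met over Fgfr2 held in 2 of 3 clones. Ptk7 (26.5, 12.6 and 14.5 FPKM), the collagen receptor Ddr1 (22.5, 12.2 and 14.3), Erbb2, given above, Ephb4 (22.2, 10.04 and 11.1) and Ryk (17.6, 11.3 and 14.03) came next by mean. Ddr1 over Erbb2 held in 1 of 3 clones, as did Ephb4 over Ryk. Ros1 varied 3.17-fold, highest in clone 2. It had 0.777, 1.61 and 0.848 FPKM, so its mean passed 1 FPKM through clone 2 alone. For the TGF-beta and BMP families 8 of 13 (61.5%) passed, with Tgfbr2 (25.2, 11.2 and 13.8 FPKM), Bmpr1a (22.8, 11.5 and 11.9) and Acvr2a (14.03, 10.3 and 12.4) highest. For Wnt and Notch 13 of 18 (72.2%) passed, with Fzd6 (26.2, 13.9 and 16.2 FPKM), Notch2 (22.2, 11.5 and 12.1), Lrp5 (17.1, 9.73 and 11.7) and Lgr4 (14.9, 9.45 and 11.1) highest. Fzd1 varied 2.75-fold and was highest in clone 1, at 115, 52.4 and 41.9 CPM.

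Nuclear receptors passed in 20 of 45 cases (44.4%), near the 47.0% of all transcripts. The orphan Esrrb (51.7, 37.4 and 43.5 FPKM, rank 516) was above Nr2f6 (44.99, 20.3 and 33.7) and the retinoic acid receptor Rarg (27.3, 17.8 and 20.5) in every clone. Esrra, a regulator of oxidative genes, was the steadiest of them, at 59.9, 59.9 and 60.3 CPM. The vitamin D receptor Vdr had 0.38, 0.42 and 0.287 FPKM, and the sex steroid receptor Esr1 0.731, 0.806 and 0.832.

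Of 22 listed genes of the V2 receptor and PKA pathway, 13 (59.1%) reached 1 FPKM, against 47.0% of all transcripts, and 5 were under background in every clone. The 13 held at least 1 gene for each of the receptor, the G protein, the cyclase and the catalytic and regulatory subunits of the kinase. The stimulatory G protein Gnas had 152, 87.6 and 106 FPKM at rank 145, but its deposited FPKM is 2.26 times what its reads give over the listed length, so its rank is uncertain. Of 8 adenylyl cyclases measured, 2 passed, Adcy6 (21.2, 15.3 and 15.2 FPKM) and Adcy9 (1.499, 1.36 and 1.24). Both catalytic PKA subunits were present in these control clones, Prkaca with 25.9, 11.3 and 15.8 FPKM and Prkacb with 14.1, 8.55 and 10.6. Regulatory subunits Prkar1a (19.6, 16.1 and 20.1 FPKM), Prkar2b (14.4, 12.9 and 19.6) and Prkar2a (11.9, 5.95 and 8.31) accompanied them, and Prkar1b was under background. The cAMP-responsive factor Creb1 had 10.7, 6.81 and 9.16 FPKM, a value likewise 1.62 times that of its reads and length. The exchange factor Rapgef3 (Epac1) had 10.1, 6.24 and 7.56 FPKM, while Rapgef4 (Epac2) was under background. The receptor kinase Adrbk1 (21.1, 12.3 and 15.7) and the arrestin Arrb2 (7.95, 5.83 and 7.87), which switch receptors off, were present. None of the 13 varied over 2-fold between clones, but only 2.64% of all transcripts at 1 FPKM or more did.

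Collecting duct and kidney transcription factors passed in 15 of 34 cases (44.1%), near the 47.0% of all transcripts. The ETS factor Ehf was highest, with 52.05, 35.8 and 37.2 FPKM at rank 560, then Pax8, the ETS factor Elf3 (40.7, 28.02 and 32.6) and Tfcp2l1, an order that held in all 3 clones. Gata3 and the Grainyhead factor Grhl2 (18.1, 12.5 and 14.3 FPKM) came next, and their order held in 1 clone. Regulators of a mesenchymal state, Snai2, Zeb1 and Zeb2, had means of 0.061, 0.031 and 0.129 FPKM. Of 24 ETS genes 15 (62.5%) passed, and of 15 KLF genes 10 (66.7%), with Klf6 (39.9, 25.3 and 31.4 FPKM) and Klf5 (20.03, 13.6 and 13.9) the highest. None of those that passed in either family varied over 2-fold between clones, but only 2.64% of all transcripts at 1 FPKM or more did.

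The HOX genes mark position along the body axis. The table held 27 of the 39 listed, and 13 of these (48.1%) reached 1 FPKM, near the 47.0% of all transcripts. It held 7 of 11 listed Hoxa genes, 6 of 10 Hoxb, 7 of 9 Hoxc and 7 of 9 Hoxd, so the clusters are incomplete. Among the genes held, the counts differed by cluster. Of the Hoxb genes 5 of 6 reached 1 FPKM, of the Hoxd genes 4 of 7, of the Hoxa genes 4 of 7 and of the Hoxc genes 0 of 7, none of which had a mean above 0.198 FPKM. The highest were Hoxd8 (31.2, 17.7 and 24.5 FPKM), Hoxb9 (22.2, 20.5 and 25.2), Hoxb7 (18.8, 17.5 and 20.96) and Hoxd4 (19.5, 12.7 and 15.3), with Hoxd8 over Hoxb9 in 1 of 3 clones. The paralogs of the ends of the clusters, Hoxd12, Hoxd13 and Hoxa11, were near background. Hoxd4 (101, 102 and 101 CPM) and Hoxa9 (28.2, 28.4 and 28.1) were among the narrowest of all listed genes.

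**Figure D3:**
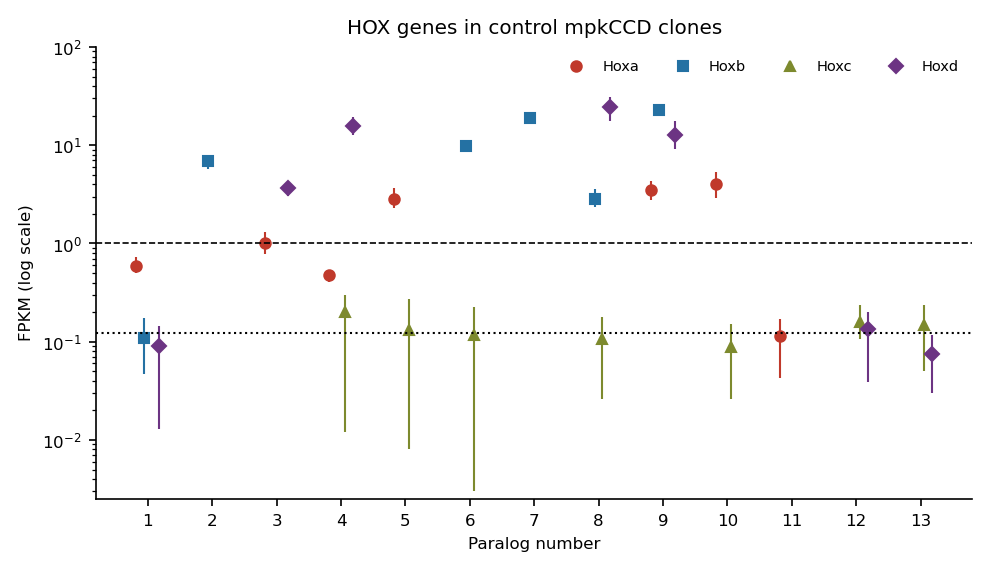
FPKM (log scale) of each HOX gene in the table by paralog number, with points at the mean of 3 clones and lines from the lowest to the highest clone, coloured by cluster, with 1 FPKM dashed and the background of the mean dotted. The 5 highest are Hoxb and Hoxd genes, and all 7 Hoxc genes lie below 1 FPKM.

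Of 25 AP-1, ATF and CREB genes 16 (64.0%) passed, against 47.0% of all transcripts. Atf4, the effector of the stress response to amino acid shortage, led with 144, 123 and 158 FPKM at rank 116, then Jund (94.6, 41.99 and 67.8) and Junb (78.2, 43.5 and 62.1). Jun had 14.9, 9.3 and 10.3 FPKM, and Fos 3.53, 4.34 and 3.79. Among 48 other epithelial factors 38 (79.2%) passed, with Ctnnb1 (119, 63.97 and 75.3 FPKM), which also builds adherens junctions, Trp53 (43.7, 27.9 and 38.8), the antioxidant regulator Nfe2l2 (45.5, 28.6 and 35.4) and Hif1a (37.8, 25.9 and 33.4) highest. Nfe2l2 (229, 223 and 227 CPM), Klf6 (343, 336 and 344) and Smad7 (36.6, 36.2 and 37.2) hardly differed between clones.

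Barrier genes passed in 16 of 25 cases (64.0%), against 47.0% of all transcripts. Claudins, which set the permeability of the tight junction, ran in the order Cldn4 (155, 73.4 and 86.1 FPKM), Cldn6 (135, 63.3 and 72.7), Cldn3 (97.2, 56.6 and 61.9) and Cldn7 (75.2, 43.04 and 50.9), an order seen in all 3 clones. Cldn8 had 70.5, 56.7 and 39.5 FPKM and lay under Cldn7 in 2 clones. The proximal claudin Cldn2 (1.37, 0.273 and 0.339 FPKM) and the thick limb claudins Cldn10, Cldn16 and Cldn19 had means below 1 FPKM. The junction proteins F11r (52.6, 42.7 and 39.1 FPKM), Tjp3 (21.8, 22.6 and 25.6) and Cgn (23.8, 16.8 and 17.1) were present.

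The clones resembled each other for most genes. Over the 9816 transcripts at 1 FPKM or more, the highest clone exceeded the lowest in CPM by a median of 1.21-fold, and by 1.58-fold at the 90th percentile. The median coefficient of variation was 10.2%, where counting error alone would give 2.32%. Over 2-fold ranges were seen for 259 transcripts (2.64%) and over 4-fold for 34 (0.346%). Clones 2 and 3 were the closest pair, with a median difference of 1.09-fold and 52 transcripts past 2-fold (0.530%), against 182 (1.85%) for clones 1 and 2 and 154 (1.57%) for clones 1 and 3. The common biological coefficient of variation from edgeR was 0.156, and 0.106 without clone 1. The clones are separate lines with 1 library each, so this spread mixes differences of clone, culture and library.

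**Figure D4:**
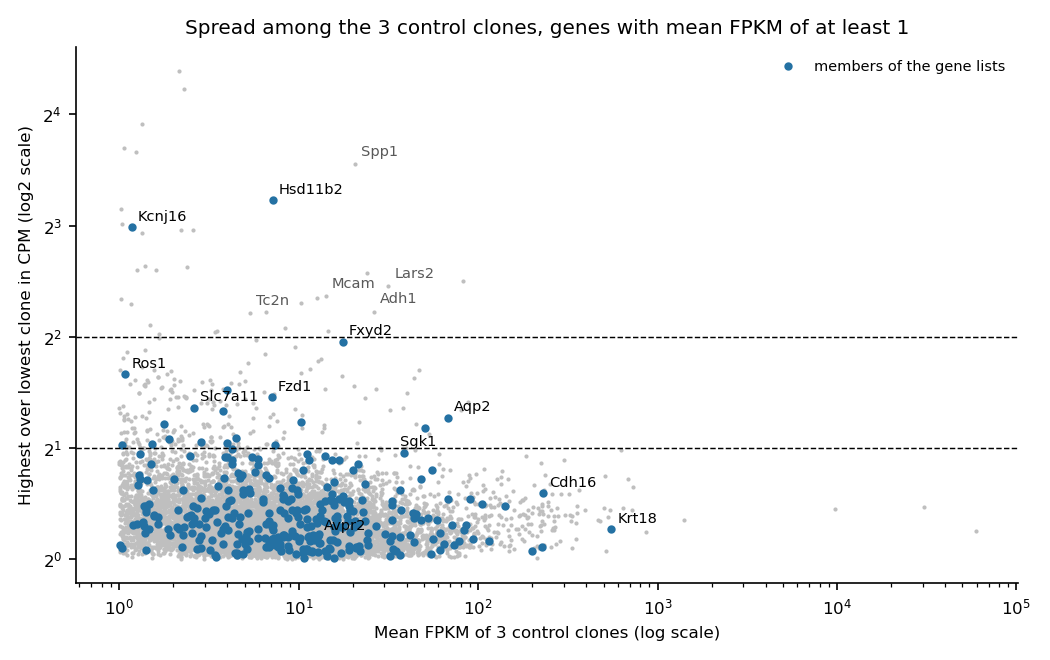
Ratio of the highest to the lowest clone in CPM (log2 scale) against mean FPKM (log scale) for the 9816 transcripts at 1 FPKM or more, listed genes in blue, with dashed lines at 2-fold and 4-fold. Hsd11b2 and Kcnj16 are the listed genes above 4-fold, while Avpr2 (1.155-fold) and Krt18 (1.205-fold) lie near the median of 1.213-fold.

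Of the 647 listed genes that the table holds, 319 reached 1 FPKM, as did 47.0% of all transcripts. Ranges over 2-fold were seen for 19 of the 319 (5.96%), against 2.64% of all transcripts at 1 FPKM or more. Over 4-fold were 2 of the 319, against 0.346% of all. The median was 1.27-fold for the listed genes and 1.21-fold for all. Without clone 1, 3 of the 319 varied over 2-fold, Kcnj16, Ros1 and Hsd11b2, against 0.530% of all transcripts. The median of the 319 was then 1.08-fold, against 1.09-fold for all. The means of Kcnj16 and Ros1 passed 1 FPKM through their highest clone alone. A range of 2 clones cannot exceed that of 3, and the listed genes were not counted without clone 2 or clone 3. Over all 3 clones, the 12 widest of the 319 included Hsd11b2, Kcnj16, Fxyd2, Ros1, Fzd1, Slc7a11, Bsnd, Aqp2, Psca, Fxyd5 and Sgk1. Among them the highest clone was clone 1, clone 2 and clone 3 in 4 genes each, but the lowest was clone 1 in 8. Over all 259 transcripts past 2-fold the highest was clone 1 in 52.1%, clone 2 in 30.5% and clone 3 in 17.4%, and the lowest was clone 1 in 38.6%, clone 2 in 32.4% and clone 3 in 29.0%. Of the principal cell markers, Aqp2 and Hsd11b2 were among the 12 and highest in clone 1, while Fxyd2 and Bsnd, which are on the lists of sodium pump and chloride genes, were lowest there.

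**Figure D5:**
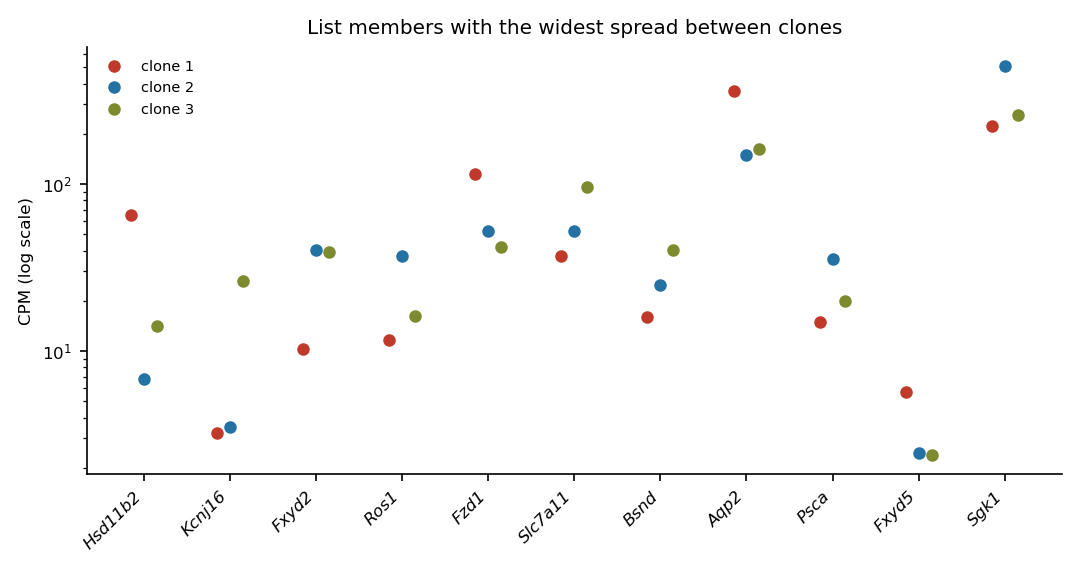
CPM (log scale) of 11 of the 12 listed genes with the widest range between clones among those at 1 FPKM or more, 1 point per clone. Clone 1 is highest for Hsd11b2, Fzd1, Aqp2 and Fxyd5, and lowest for the other 7, among them Fxyd2 and Bsnd.

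Among all genes of at least 5 FPKM, the widest was Spp1 (osteopontin, a secreted phosphoprotein), with 145, 12.3 and 29.3 CPM, 11.7-fold. Hsd11b2 came next, then Lars2, the mitochondrial leucyl-tRNA synthetase, with 104, 296 and 569.9 CPM, the adhesion molecule Mcam with 181, 34.9 and 56.1 and the alcohol dehydrogenase Adh1 with 117, 148 and 31.5. The first 10 also held Sftpd, a collectin, Tc2n, Ly6e and the calmodulin-like Calml4. Clone 1 was highest for 7 of the 10, but Lars2 was highest in clone 3, and Adh1 and Tc2n in clone 2.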

How the data were processed

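The deposited table lists 20896 transcripts, 1 per gene, and gives reads and FPKM for each clone. Although headed as read counts, the deposited reads are not whole and form a signal that the authors had scaled to the same total in every library. They were divided by the step between values of each library (0.427 to 0.635 scaled reads), after which 100% were whole within 0.01. The FPKM values were computed by the authors, per the file headers, and imply library totals of which the table's reads are 31.7% to 48.7%. The design had assumed counts and FPKM. Per the submitters' processing notes, the build was GRCm38.p5 and the tools included HOMER 4.8, STAR 2.5.2a, edgeR and SAMtools, in roles not stated. The use of strand in counting is likewise not stated, so reads of overlapping or antisense genes may be mixed.

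From these values genes were ranked by mean FPKM of the 3 clones. CPM came from recovered reads with TMM factors (edgeR 4.0.16, R 4.3.3), and the ratio of highest to lowest clone used a pseudocount of 0.1 CPM. Background was the 95th percentile over olfactory and vomeronasal receptor genes. FPKM departed by over 5% from reads over listed length for 9.45% of 8974 transcripts with over 300 reads in each clone, 22 of them listed genes. Identifiers were matched to GENCODE M21 (99.6%), and 25 symbols turned into dates are not named. The spread calculation was tested on simulated data.

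The members and the 38 gene lists were chosen with earlier results of these data known. Named were Aqp2, Avpr2, Scnn1a and Tfcp2l1; the 12 highest coding genes other than ribosomal proteins, and the highest non-coding ones; of each list the first member and the 4 highest, with all segment and other-cell members at 1 FPKM or more; all principal and intercalated markers; the 10 highest Slc genes; the 10 genes of widest range at 5 FPKM or more; and the 12 widest and 8 narrowest list members. The widest and narrowest list members were taken among those with a mean of at least 1 FPKM. Other list members were named after their values were seen, as examples of what the list holds or lacks. Alternatives were other FPKM thresholds, factors, pseudocounts, filters and rankings, and leaving out each clone. FPKM recomputed from reads and length was added after seeing the data. Some genes that the naming rule covers, and 1 of the motifs searched, are not reported here, though counts over lists include them.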

Additional observations from a re-analysis of the deposited data

How the results depend on the processing

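The 3 clones are too few for a test, and 1 library per clone means that clone and library cannot be told apart. The count of transcripts at 1 FPKM or more, 9816, ranged from 8774 to 13444 over the thresholds, scalings and clones left out, and stayed within 1.5 times. With the threshold at the background, principal cell markers went from 9 to 15, intercalated markers from 3 to 12 and proximal tubule markers from 2 to 9, so these counts depend on where low levels are divided. At 0.5 FPKM the intercalated count was 5, and at 2 FPKM the proximal count was 1.

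The median range between clones, 1.213-fold, became 1.56-fold on deposited FPKM and 1.549-fold with no filter, and 1.087 to 1.149 with a clone left out. The 34 genes past 4-fold became 60 on deposited FPKM, 13 at 5 FPKM or more and 3507 with no filter, and 4 to 22 with a clone left out, the lowest without clone 1. The biological coefficient of variation, 0.1555, became 0.4778 with no filter and 0.1055 to 0.1751 with a clone left out, the lowest without clone 1. Of 230 named genes, the rank stayed within 1 SD for 190 by median FPKM and for 72 by CPM, which is not per length. No paired analysis was possible because only the control group is described and no groups were compared. Values under background rest on few reads, which limits their precision. Clone 1 had more transcripts without a read than clone 2 (2443 against 863) although it had more reads in the table (39780099 against 28596444), and the cause was not tested.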

Other observations

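By chromosome, the median difference of a clone from the mean of the 3 clones (log2 CPM, transcripts at 1 FPKM or more) lay between -0.07 and 0.05 for all autosomes but 5, and for the X. Over the 502 transcripts of chromosome 10 it was -0.23 in clone 1, 0.13 in clone 2 and 0.09 in clone 3. On chromosome 12 clone 1 lay at -0.21, with clones 2 and 3 at 0.10 and 0.11. On chromosome 8 clone 2 lay at -0.24, against 0.15 and 0.10 in clones 1 and 3. On chromosome 14 the median was 0.195 in clone 1 and -0.18 in clone 3, and on chromosome 5 it was 0.14 and -0.13.

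Matrix and surface genes that belong to no list, and were picked after their values were seen, also differed by clone. Fibronectin (Fn1) had 447, 128 and 174 CPM, the basement membrane collagen Col4a1 128.8, 37.9 and 70.5, and the apical membrane protein Prom1 158, 90.5 and 48.2. Trib3, a pseudokinase gene of the stress response, had 28.0, 83.4 and 96.5 CPM. Fn1, Col4a1 and Prom1 were highest in clone 1 and Trib3 was lowest there.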
